A study of Mus musculus with 2 samples.

Results

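Ccl2, Ccl3, Ccl4, Ccl6, Ccl7, Ccl8, Ccl9, Ccl12 and Ccl24 are the 9 CC chemokine genes described here, picked by symbol from the 28692 genes listed for both libraries. They were measured by single-cell RNA sequencing in GR-1+ cells, which carry the surface antigens Ly6C or Ly6G of monocytic and granulocytic cells, taken with magnetic beads from 4T1 tumors grown in the mammary fat pad of adult female BALB/c mice. 4T1 is a triple-negative breast carcinoma line. The tumors of both groups were treated with anti-PD1 antibody and taken 2 weeks later: 4T1p is the parental line, whose tumors resist the antibody, and 4T1m is a polyclonal derivative made by chemical mutagenesis, whose tumors respond. One library was sequenced per tumor type, so there were no replicates and no difference between the tumors was tested. How many mice gave cells to a library is not given in the sources used here.

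CC chemokines are small secreted proteins that guide leukocytes along concentration gradients by binding receptors of the G protein-coupled family. Ccl2, Ccl7 and Ccl12 draw monocytes out of the bone marrow and into tissue mainly through CCR2, and mouse Ccl8 acts mainly through CCR8. Ccl3 and Ccl4, the macrophage inflammatory proteins 1α and 1β, act on monocytes and lymphocytes, Ccl3 in part through CCR1. Ccl6 and Ccl9 are rodent ligands of CCR1, and Ccl24, or eotaxin-2, draws eosinophils through CCR3. In tumors, chemokines of this family are known for recruiting monocytes that become macrophages.

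UMIs (unique molecular identifiers, each counting 1 captured RNA molecule) numbered 9021132 over 1641 barcodes in the library labelled 4T1p, and 14840190 over 2749 barcodes in that labelled 4T1m. Their medians over all barcodes, 2066 UMIs in 4T1p and 2763 UMIs in 4T1m, are each the median that the methods of the study give for the other condition, so every direction between libraries below rests on the labels as deposited. The libraries also differed in makeup: the macrophage-like Cxcl9/Tmem176b state described below was 202 of 1128 kept barcodes of 4T1p and 65 of 2092 of 4T1m. They shared 0 barcodes. Limits of 250 and 5000 detected genes, an upper limit of 27000 UMIs and one of 12.5% mitochondrial UMIs kept 1128 barcodes of 4T1p and 2092 of 4T1m. The study also required a UMI of the leukocyte gene Ptprc, which was not required here. Such a UMI was found in 518 of the kept barcodes of 4T1p and 1575 of those of 4T1m. Clusters made without the 9 chemokine genes gave 577 and 674 macrophage-like barcodes, 251 and 1023 neutrophil-like barcodes, 1 and 34 B cell-like and 7 and 21 T cell-like barcodes, and a cluster of 292 and 340 barcodes of low RNA content (median 908 and 909 UMIs) that was left unnamed. Neutrophil markers summed to 160093 CPM (counts of a gene scaled to 1000000 UMIs of the group) in the neutrophil-like barcodes of 4T1p and 161511 CPM in those of 4T1m, and macrophage markers to 28452 and 15873 CPM in the macrophage-like ones. In the other class they were at 1008 and 1435 CPM (neutrophil markers) and 963 and 803 CPM (macrophage markers). The unnamed barcodes had macrophage markers at 15515 and 12608 CPM and neutrophil markers at 1095 and 1382 CPM. At a clustering resolution of 0.4, 0 barcodes stayed unnamed and the macrophage-like class had 1883. RNA of the GR-1 antigens themselves was sparse: Ly6g had a UMI in 0.173% and 0.742% of macrophage-like and 11.2% and 13.3% of neutrophil-like barcodes, and Ly6c2 in 4.33% and 6.68% of macrophage-like ones, so the sort was not visible in the RNA of most macrophage-like barcodes.

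The macrophage-like barcodes formed 5 clusters and the neutrophil-like barcodes 4, each called here by its 2 leading genes. A level is the sum of UMIs of a gene over a group, in CPM, with its exact Poisson interval in square brackets. These values count 3′ tags and are not divided by gene length, so levels are compared between groups for the same gene. All intervals are 95% intervals and cover counting error only. A group was said to differ from another where the 2 CPM values were at least 2-fold apart on at least 20 UMIs.

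The chemokine genes lie in 2 clusters on mouse chromosome 11 (GRCm38, GENCODE vM21), apart from Ccl24 on chromosome 5. The first cluster spans 81.2 kb on the forward strand and holds the 4 monocyte chemoattractant genes in the order Ccl2 (chr11:82035571-82037453), Ccl7 (chr11:82045712-82047525), Ccl12 (chr11:82101845-82103400) and Ccl8 (chr11:82115185-82116799). The second cluster spans 91.8 kb and holds Ccl9 (chr11:83572919-83578636), Ccl6 (chr11:83587882-83593087) and Ccl3 (chr11:83647844-83649355) on the reverse strand and Ccl4 (chr11:83662584-83664683) on the forward strand. A gap of 1456.1 kb with 27 protein-coding genes separates the clusters. Ccl3 and Ccl4 are neighbors whose start sites face each other across 13.2 kb with 0 protein-coding genes between them. Ccl24 lies at chr5:135569937-135573049 on the reverse strand.

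The transcribed sequences of 8 of the 9 genes shared 0 runs of 60 bases with any other gene, and Ccl9 shared 31 of its 2986 such runs, so their reads can be told apart. Ccl2 overlaps Gm17268 on the other strand, which had 0 UMIs in the kept barcodes.

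The 250 bases before the transcription start were at hand for 5 of the 9 genes in a RefSeq table of GRCm38.p6 (not for Ccl2, Ccl7, Ccl4 and Ccl24). Those of Ccl12 and Ccl8, neighbors in the first cluster with a related pattern over the cell states, and of Ccl3 and Ccl9, members of the second cluster whose patterns differ most, are shown 5′ to 3′ in the direction of transcription. Capitals mark matches to the searched motifs on either strand.
Ccl12 (chr11:82101595-82101844, forward strand): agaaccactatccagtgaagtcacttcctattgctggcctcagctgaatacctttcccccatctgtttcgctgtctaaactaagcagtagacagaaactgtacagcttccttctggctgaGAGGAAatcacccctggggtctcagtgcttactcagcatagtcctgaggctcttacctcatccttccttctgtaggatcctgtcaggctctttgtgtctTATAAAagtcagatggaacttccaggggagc
Ccl8 (chr11:82114935-82115184, forward strand): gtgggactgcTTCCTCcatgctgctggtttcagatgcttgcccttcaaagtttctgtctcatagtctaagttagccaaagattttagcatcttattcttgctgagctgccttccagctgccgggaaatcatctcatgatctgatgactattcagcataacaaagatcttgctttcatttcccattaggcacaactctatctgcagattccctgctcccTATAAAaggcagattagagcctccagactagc
Ccl3 (chr11:83649379-83649628, reverse strand): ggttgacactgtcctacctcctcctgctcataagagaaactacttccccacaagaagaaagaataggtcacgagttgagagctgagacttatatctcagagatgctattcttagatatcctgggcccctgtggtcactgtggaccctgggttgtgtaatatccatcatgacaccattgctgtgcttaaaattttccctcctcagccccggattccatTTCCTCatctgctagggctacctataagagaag
Ccl9 (chr11:83578637-83578886, reverse strand): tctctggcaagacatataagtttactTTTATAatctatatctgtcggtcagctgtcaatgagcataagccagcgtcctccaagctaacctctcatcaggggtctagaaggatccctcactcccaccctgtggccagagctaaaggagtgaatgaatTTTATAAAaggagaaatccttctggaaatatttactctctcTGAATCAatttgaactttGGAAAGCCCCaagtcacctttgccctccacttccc

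The TATA box letters TATAAA stand 31 to 26 bases before the start of Ccl12 and 32 to 27 bases before that of Ccl8, and 3504 of 27025 mouse promoters of the same length hold them somewhere on either strand. In the promoter of Ccl9 the NF-κB motif, searched by name, stands 35 to 26 bases and the AP-1 motif TGANTCA 53 to 47 bases before the start, motifs that 3.8% and 6.9% of the promoters hold. TATAAA letters stand farther from the start there, the nearest at 94 to 87 bases on either strand. The letters of the PU.1 motif, GAGGAA, were found once each in the promoters of Ccl12, Ccl8 and Ccl3 (as TTCCTC in the last 2) and in 23.1% of all promoters. The promoter of Ccl6 held 0 of the searched motifs, which also included C/EBP by name, ISRE (TTTCNNTTTC) and STAT (TTCNNNGAA), held by 0.8%, 3.0% and 7.2% of all promoters. A match describes the letters and does not show that a factor binds there.

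The 9 genes together made up 12636 CPM of the macrophage-like and 11244 CPM of the neutrophil-like barcodes of the library labelled 4T1p, and 13403 and 8874 CPM in 4T1m. At least 1 of the 9 had a UMI in 96.0% of macrophage-like and 90.3% of neutrophil-like barcodes. Both classes therefore carried this chemokine RNA, at sums under 2-fold apart in each library. In both libraries Ccl4 had the most UMIs of the 9 in macrophage-like barcodes and Ccl3 in neutrophil-like ones. A macrophage-like barcode held a median of 5 of the 9 genes (3 after thinning each barcode to 1000 UMIs), and a neutrophil-like barcode 2 (2 after thinning). The B cell-like and T cell-like barcodes, which are not known as a main source of most of these genes, summed to 127 and 752 CPM.

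Macrophage-like over neutrophil-like levels, both libraries together, were at least 2-fold higher for 7 of the 9 genes (Ccl2, Ccl7, Ccl12, Ccl8, Ccl4, Ccl9 and Ccl24) and at least 2-fold lower for 1, Ccl3. Of 6100 genes with at least 200 UMIs, 49.2% were higher by that rule and 10.9% lower (60.1% either way), and the median log2 ratio was 3.54 over the 9 chemokine genes and 0.96 over all genes. Within the library labelled 4T1p the counts were 7 higher and 1 lower (background 45.5% and 13.3%, 58.8% either way), and in 4T1m, where Ccl6 reached 1.00, 8 higher and 1 lower (background 47.0% and 11.4%, 58.4% either way). The count of higher genes is thus to be read against a background in which about as many genes were higher as were not.

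**Figure D1:**
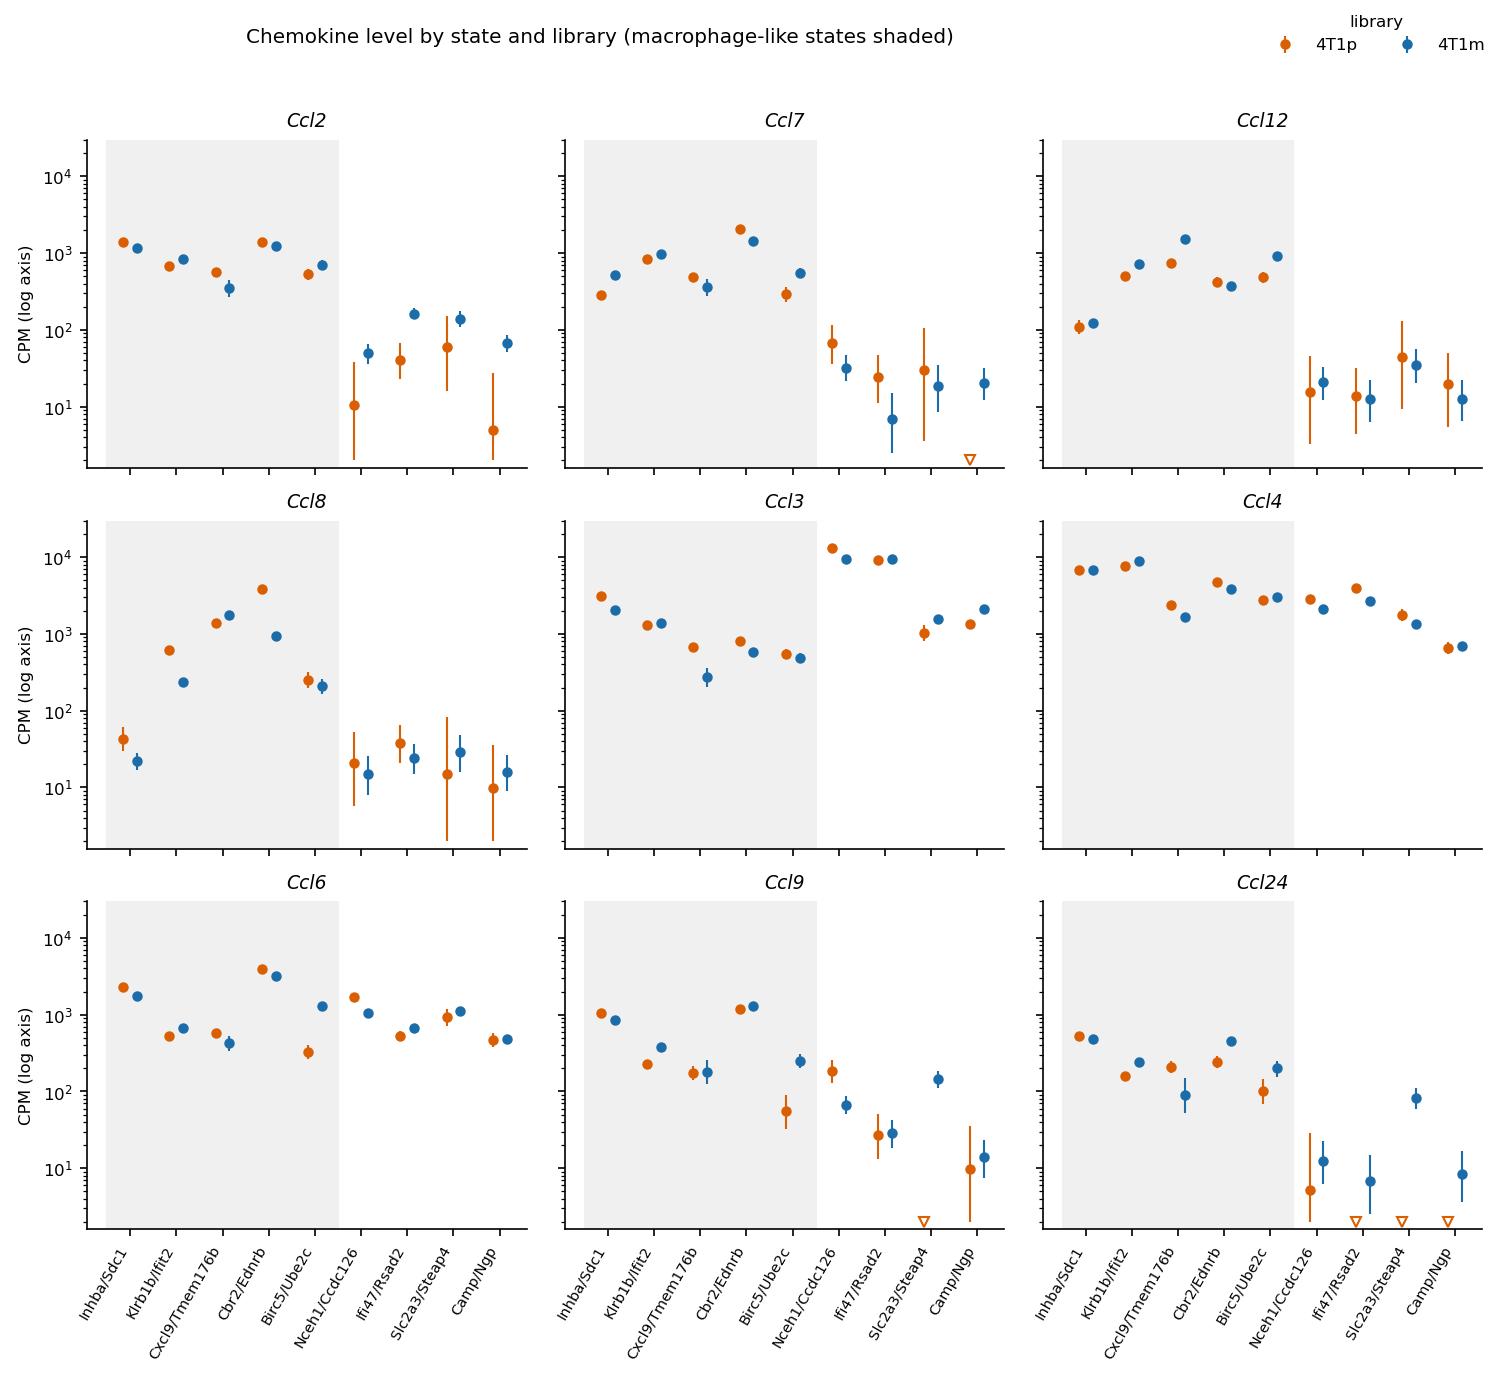
Level of each of the 9 chemokine genes in CPM (logarithmic axis) in the 5 macrophage-like and 4 neutrophil-like states of each library, with exact Poisson 95% intervals; macrophage-like states are shaded and open triangles mark 0 UMIs. Ccl3 has its highest points in the neutrophil-like states Nceh1/Ccdc126 and Ifi47/Rsad2. The highest points of Ccl2, Ccl7, Ccl12, Ccl8, Ccl4, Ccl6, Ccl9 and Ccl24 lie in macrophage-like states.

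Ccl2, the founding ligand of CCR2, was read in macrophage-like barcodes at 874 CPM [846, 902] in the library labelled 4T1p and 1021 CPM [997, 1046] in 4T1m. In neutrophil-like barcodes it stood at 26.6 CPM [16.7, 40.2] and 99.7 CPM [89.0, 111]. Macrophage-like barcodes were higher by a log2 ratio of 3.51 (3.36 to 3.67). A UMI of Ccl2 was found in 53.4% and 62.9% of macrophage-like barcodes, and after thinning in 36.9% and 38.7%. Within the class, the highest Ccl2 levels lay in the Cbr2/Ednrb state (1415 CPM in 4T1p and 1244 CPM in 4T1m) and the Inhba/Sdc1 state (1399 and 1152 CPM). Cxcl9/Tmem176b, with 567 and 347 CPM, and Birc5/Ube2c, with 534 and 709 CPM, were at the low end in both libraries.

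Ccl7, another CCR2 ligand and the next gene along the chromosome, was at 793 CPM [766, 820] in macrophage-like barcodes of 4T1p and 808 CPM [787, 830] in those of 4T1m. The neutrophil-like barcodes had 29.0 and 19.6 CPM, a log2 difference of 5.22 (4.92 to 5.55) between the classes. Cbr2/Ednrb again led, with 2071 CPM in 4T1p and 1456 CPM in 4T1m. Unlike Ccl2, Ccl7 was low in Inhba/Sdc1, at 282 and 515 CPM, below the 839 and 966 CPM of Klrb1b/Ifit2. The intervals of these pairs of states did not overlap in either library.

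Ccl12, a rodent CCR2 ligand, was at 449 CPM [429, 470] in macrophage-like barcodes of 4T1p and 432 CPM [416, 448] in those of 4T1m, against 18.1 and 18.3 CPM in neutrophil-like ones. The class difference was 4.59 on the log2 scale (4.25 to 4.94). Its order over the states differed from that of Ccl2: Cxcl9/Tmem176b was highest with 748 CPM [677, 824] and 1534 CPM [1357, 1728], and Inhba/Sdc1 was lowest of the macrophage-like states with 110 and 124 CPM. Klrb1b/Ifit2 (500 and 716 CPM), Birc5/Ube2c (481 and 920 CPM) and Cbr2/Ednrb (419 and 375 CPM) lay between. In 4T1p the intervals of these last 3 states overlapped one another.

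Ccl8, which in mice acts mainly through CCR8, was read at 935 CPM [906, 965] in macrophage-like barcodes of 4T1p and 295 CPM [282, 308] in those of 4T1m. Neutrophil-like barcodes had 25.4 and 19.9 CPM, and the class difference was 4.69 (4.38 to 5.02) on the log2 scale. In 4T1p its level was 3790 CPM [3617, 3968] in Cbr2/Ednrb, 1370 CPM in Cxcl9/Tmem176b, 610 CPM in Klrb1b/Ifit2, 250 CPM in Birc5/Ube2c and 43.3 CPM in Inhba/Sdc1. In 4T1m the same states had 940 CPM [883, 999], 1750 CPM, 238 CPM, 208 CPM and 21.9 CPM. Inhba/Sdc1, one of the states with the most Ccl2, thus held the least Ccl8 of the 5. The lead of Cxcl9/Tmem176b in 4T1m rested on 1 barcode: it held 249 of the 308 Ccl8 UMIs of that state, which had 361 CPM without it.

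Ccl3 was the 1 gene of the 9 with its main level in neutrophil-like barcodes. It was read there at 7532 CPM [7346, 7721] in 4T1p and 6114 CPM [6028, 6200] in 4T1m, and in macrophage-like barcodes at 1456 CPM [1420, 1492] and 1481 CPM [1452, 1510]. The macrophage-like level was lower by a log2 ratio of -2.37 in 4T1p and -2.05 in 4T1m. A UMI of Ccl3 was found in 81.3% and 75.5% of neutrophil-like barcodes, and in 75.1% and 71.0% after thinning. The level was not even across the neutrophil-like states: Nceh1/Ccdc126 had 13318 CPM in 4T1p and 9444 CPM in 4T1m, and Ifi47/Rsad2, named for interferon-induced genes, 9121 and 9597 CPM. Camp/Ngp, named for granule genes of immature neutrophils, had 1364 and 2135 CPM, and Slc2a3/Steap4 1025 and 1568 CPM. Among macrophage-like states Inhba/Sdc1 was highest with 3091 and 2074 CPM, so the 2 classes overlapped by state although their sums did not. In 4T1p, 1 barcode of that state held 608 Ccl3 UMIs and 585 Ccl4 UMIs. Its neutrophil markers stood at 6157 CPM and its macrophage markers at 474 CPM.

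Ccl4, the gene facing Ccl3 on the chromosome, had the opposite order of classes. It was at 6182 CPM [6107, 6257] in macrophage-like barcodes of 4T1p and 6681 CPM [6619, 6743] in those of 4T1m, and at 2737 CPM [2625, 2852] and 1737 CPM [1691, 1783] in neutrophil-like ones. The class difference was 1.74 (1.70 to 1.77) on the log2 scale, and 0.78, under 2-fold, with median-of-ratios scaling. Klrb1b/Ifit2 led with 7668 CPM in 4T1p and 9034 CPM in 4T1m, followed by Inhba/Sdc1 with 6824 and 6775 CPM and Cbr2/Ednrb with 4708 and 3846 CPM. After thinning, 94.9% and 94.5% of the Klrb1b/Ifit2 barcodes still held a Ccl4 UMI. Among neutrophil-like states, Ifi47/Rsad2 was highest with 3996 and 2685 CPM and Camp/Ngp lowest with 655 and 690 CPM. The B cell-like barcodes of both libraries had 39 CPM of Ccl4, and the T cell-like barcodes 477 CPM, where the gene is also known to be used.

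Ccl6, a rodent CCR1 ligand, was the most even between the classes, with 1237 CPM [1203, 1270] and 1588 CPM [1558, 1618] in macrophage-like and 818 CPM [757, 882] and 793 CPM [762, 825] in neutrophil-like barcodes of 4T1p and 4T1m. The log2 ratio of the classes was 0.86 (0.81 to 0.92), under 2-fold, and turned to -0.10 with median-of-ratios scaling. The states differed more than the classes. Cbr2/Ednrb had 3918 CPM in 4T1p and 3241 CPM in 4T1m, Inhba/Sdc1 2323 and 1736 CPM, and Klrb1b/Ifit2 536 and 681 CPM. The neutrophil-like Nceh1/Ccdc126 state, with 1689 and 1064 CPM, lay above Klrb1b/Ifit2 in both libraries.

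Ccl9, a CCR1 ligand beside Ccl6 on the chromosome, stood at 469 CPM [449, 490] in macrophage-like barcodes of 4T1p and 723 CPM [703, 744] in those of 4T1m. In neutrophil-like barcodes it had 56.8 and 52.7 CPM, and the class difference was 3.54 (3.35 to 3.75) on the log2 scale. Its levels followed the order Cbr2/Ednrb (1186 and 1280 CPM), Inhba/Sdc1 (1055 and 856 CPM) and Klrb1b/Ifit2 (225 and 378 CPM). This is the order of Ccl6 among those 3 states. Of the neutrophil-like states, Nceh1/Ccdc126 had 182 CPM [127, 254] in 4T1p, which overlaps Klrb1b/Ifit2, and 67.6 CPM [51.5, 87.2] in 4T1m.

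Ccl24, the eotaxin of the set, had 242 CPM [227, 257] in macrophage-like barcodes of 4T1p and 374 CPM [360, 389] in those of 4T1m. Neutrophil-like barcodes gave 1 UMI, or 1.21 CPM [0.0306, 6.73], in 4T1p and 65 UMIs, or 20.5 CPM [15.8, 26.1], in 4T1m. Inhba/Sdc1 was highest in both libraries with 535 CPM [485, 589] and 477 CPM [453, 502]. Cbr2/Ednrb followed in 4T1m with 451 CPM [412, 492], whose interval overlaps that of Inhba/Sdc1, and had 245 CPM in 4T1p. The class difference over both libraries was 4.29 (3.94 to 4.66) on the log2 scale.

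The low counts in neutrophil-like barcodes were read against the B cell-like and T cell-like barcodes, which should hold most of these genes only as free RNA. Both libraries were pooled, but these barcodes came mostly from 4T1m: 1 and 34 B cell-like and 7 and 21 T cell-like barcodes in 4T1p and 4T1m. The background of 4T1p alone was not read. Neutrophil-like Ccl2 was at 26.6 CPM in 4T1p and 99.7 CPM in 4T1m. Over these lymphocyte-like barcodes, neutrophil-like levels were higher by log2 ratios of 5.85 for Ccl3, 5.58 for Ccl6, 2.93 for Ccl4 and 2.93 for Ccl2. For Ccl4 this is no background, since T cells use the gene and 1 T cell-like barcode held 57 of the 85 UMIs of that class. For Ccl9 (3.27, from 1.40 to 6.32) and Ccl8 (1.92, from 0.02 to 4.99) the lymphocyte-like barcodes held 2 UMIs each. The counts behind Ccl2 and Ccl6 were also small. B cell-like and T cell-like barcodes held 3 and 1 UMIs of Ccl2, and 2 and 4 UMIs of Ccl6. The intervals of Ccl7 (1.37, from -0.23 to 3.67), Ccl12 (1.13, from -0.47 to 3.44) and Ccl24 (0.25, from -1.05 to 1.92) included 0, so for those 3 genes a neutrophil-like level above background was not detectable at this depth. In macrophage-like barcodes all 9 were above the same lymphocyte-like barcodes, by 3.73 for Ccl3 to 6.81 for Ccl9.

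Of the UMIs of Ccl3 in the library labelled 4T1p, 49.1% came from macrophage-like and 49.6% from neutrophil-like barcodes, and in 4T1m 33.6% and 65.5%. Of the Ccl4 UMIs, 89.8% and 87.0% came from macrophage-like barcodes. The share for Ccl6 was 81.1% and 73.9%, and for the other 6 genes it lay between 88.2% and 96.8%. These shares follow the levels, the number of barcodes per class and their depth. Over all genes, macrophage-like barcodes held 4248167 of the 5570882 kept UMIs of 4T1p and 6717007 of the 10831715 of 4T1m. The Cbr2/Ednrb state was 70 of the 577 macrophage-like barcodes of 4T1p and 128 of the 674 of 4T1m. Over all genes and both libraries it had 1566523 UMIs. The class had 10965174 UMIs, and all kept barcodes had the 5570882 (4T1p) and 10831715 (4T1m) given above. Of the UMIs in all kept barcodes, the Cbr2/Ednrb state alone held 45.0% for Ccl8, 27.9% for Ccl7, 26.3% for Ccl9 and 25.8% for Ccl6.

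**Figure D2:**
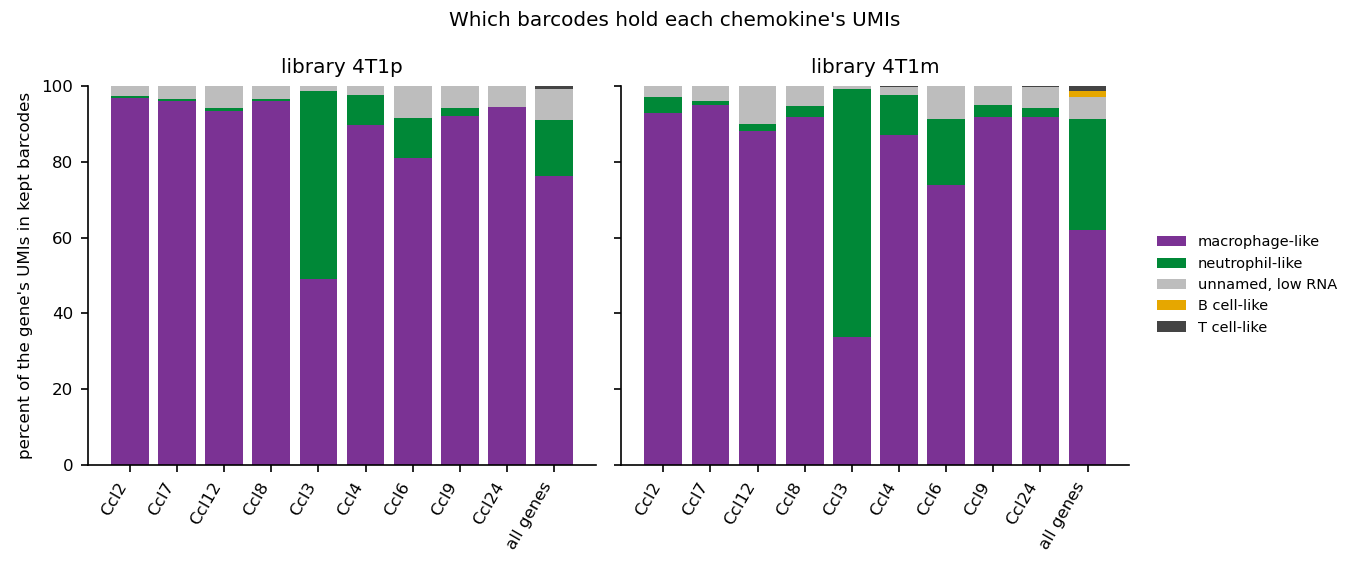
Share of the UMIs of each chemokine gene, in percent, by the class of barcode they came from, in the 2 libraries, with the share over all genes as the last bar. Ccl3 is divided between macrophage-like and neutrophil-like barcodes (49.1% and 49.6% in 4T1p), and the other genes come mainly from macrophage-like barcodes.

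Between the libraries, Ccl8 was the 1 gene of the 9 that differed at least 2-fold in macrophage-like barcodes, and it was lower in 4T1m. Its log2 ratio of 4T1m over 4T1p was -1.67 (-1.74 to -1.59). Of 5480 genes with at least 200 UMIs, 7.88% differed by that rule: 6.53% were higher and 1.35% lower in 4T1m, so the count of 1 is near what the background gives. The other 8 lay between -0.06 for Ccl12 and 0.63 for Ccl24: Ccl2 had 0.22, Ccl7 0.03, Ccl3 0.02, Ccl4 0.11, Ccl6 0.36 and Ccl9 0.62. The median over the 9 was 0.11 and over all genes 0.14. These ratios also carry the makeup of the class by state. With equal weight to states Ccl12 turned to 0.70, Ccl2 to -0.10, Ccl6 to -0.06, Ccl7 to -0.04, Ccl3 to -0.43 and Ccl4 to -0.002. Ccl9 and Ccl24 kept their sign. Within states, Ccl12 was higher in 4T1m in Klrb1b/Ifit2, Birc5/Ube2c and Cxcl9/Tmem176b. The levels in 4T1p and 4T1m were 500 and 716, 481 and 920, and 748 and 1534 CPM. Its intervals overlapped in Cbr2/Ednrb (419 and 375 CPM) and Inhba/Sdc1 (110 and 124 CPM).

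The share of macrophage-like barcodes with a Ccl8 UMI was 43.2% [39.1, 47.3] in 4T1p and 21.4% [18.3, 24.7] in 4T1m. The 4T1m barcodes were the deeper ones, with a median of 9473.5 UMIs against 2961, and after thinning the shares were 26.3% [22.3, 30.6] and 9.67% [7.48, 12.2]. The shares thus differed in the same direction as the CPM. Ccl8 counts were held by few barcodes: in both libraries together, the 10% of macrophage-like barcodes with the most Ccl8 held 90.3% of its UMIs, against 44.9% for Ccl4. Leaving out the highest barcode of each library, with 411 UMIs in 4T1p and 342 UMIs in 4T1m, gave -1.78 (-1.87 to -1.70).

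The 5 states took different parts of the 2 libraries, so the Ccl8 difference was also read within each state. In Cbr2/Ednrb it was -2.01 (-2.12 to -1.90) and in Klrb1b/Ifit2 -1.35 (-1.51 to -1.21), and without the highest barcode of each library -2.26 and -1.62. In Inhba/Sdc1 it was -0.98 (-1.60 to -0.34) on 34 and 65 UMIs, and 0.24 (-0.72 to 1.33) without the highest barcodes, the one in 4T1p holding 23 of the 34 UMIs. In Birc5/Ube2c it was -0.26 (-0.75 to 0.23), and -0.69 (-1.27 to -0.12) without them. Cxcl9/Tmem176b went the other way at 0.35 (0.16 to 0.55), which turned to -1.73 (-2.14 to -1.34) without the highest barcode of each library, with 99 UMIs in 4T1p and 249 UMIs in 4T1m. The thinned shares of barcodes with a UMI were lower in 4T1m in 4 of the states: 46.9% and 18.2% in Cbr2/Ednrb, 19.6% and 9.66% in Klrb1b/Ifit2, 37.2% and 23.4% in Cxcl9/Tmem176b, and 32.2% and 8.11% in Birc5/Ube2c, in 4T1p and 4T1m. In Inhba/Sdc1 they went the other way, with 0% [0, 5.13] and 3.28% [1.43, 6.36], but these intervals overlap. Its unthinned shares were 13.5% in 4T1p and 9.84% in 4T1m. The thinned intervals of the 2 libraries also overlap in Klrb1b/Ifit2, [13.3, 27.2] and [5.38, 15.7], and in Cxcl9/Tmem176b, [28.9, 46.2] and [12.3, 38.0].

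With equal weight to the 5 states the Ccl8 ratio over the class was -0.94, under 2-fold, the barcode of 249 UMIs included. It was -3.77 with at most 5% mitochondrial UMIs, where 378 and 367 macrophage-like barcodes remained with 2022 and 223 Ccl8 UMIs. In the low-RNA barcodes, outside the class, Ccl8 was at 316 CPM [266, 373] in 4T1p and 174 CPM [143, 209] in 4T1m.

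**Figure D3:**
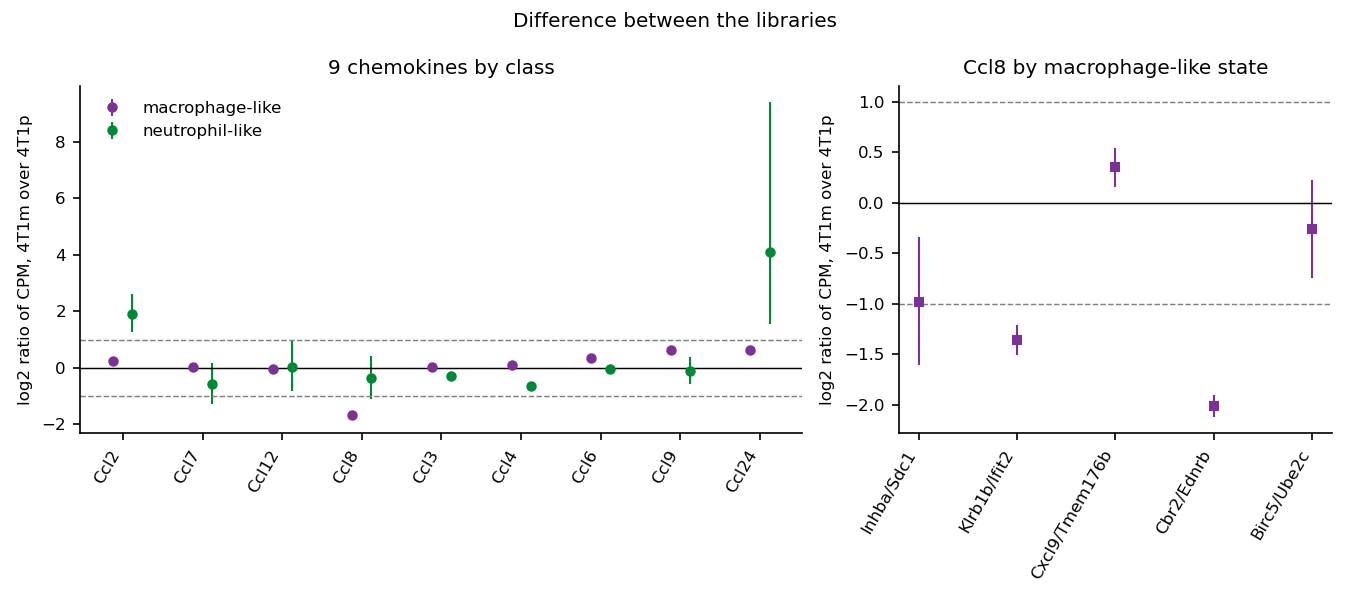
Log2 ratio of 4T1m over 4T1p for each chemokine gene in macrophage-like and neutrophil-like barcodes, with intervals that cover counting error only; dashed lines mark 2-fold, and the right panel gives Ccl8 in each macrophage-like state. Ccl8 in macrophage-like barcodes (-1.67) and Ccl2 (1.91) and Ccl24 (4.09) in neutrophil-like barcodes lie past 2-fold.

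Other genes had differences past 2-fold within single states, on smaller counts. The share of all genes past 2-fold is not given for single states, so these differences have no background beside them. In the cycling state Birc5/Ube2c, Ccl6 had 327 CPM in 4T1p and 1292 CPM in 4T1m, a log2 ratio of 1.98 (1.66 to 2.32), and Ccl9 had 56.2 and 250 CPM, a ratio of 2.15 (1.38 to 3.02). In Cxcl9/Tmem176b, Ccl12 was higher in 4T1m by 1.04, or 0.98 without the highest barcodes. In the same state Ccl3 and Ccl24 were lower in 4T1m at -1.29 and -1.20, Ccl24 on 113 and 16 UMIs in 4T1p and 4T1m. Neutrophil-like states also had such differences, in both directions. In Nceh1/Ccdc126, Ccl9 had 182 CPM in 4T1p and 67.6 CPM in 4T1m on 35 and 59 UMIs, with 12 of the 35 in 1 barcode. The shares of its barcodes with a Ccl9 UMI were 10.4% and 8.82%. Ccl2 had 10.4 and 49.3 CPM in that state on 2 and 43 UMIs. A UMI of the leukocyte gene Ptprc was found in 80 of 267 barcodes of Cxcl9/Tmem176b and 50 of 180 of Birc5/Ube2c, whose median depths were 1434 and 1509 UMIs and 1428 and 1720 UMIs in 4T1p and 4T1m. These values were not tested.

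In neutrophil-like barcodes 2 of the 9 genes, Ccl2 and Ccl24, differed at least 2-fold between the libraries, both higher in 4T1m. Of 1993 genes with at least 200 UMIs there, 7.63% differed by that rule, 5.07% higher and 2.56% lower. Ccl7, Ccl8, Ccl12 and Ccl24, with 86, 84, 73 and 66 UMIs, lie under that floor. The count of 2 and the share of 7.63% are therefore not like for like. Ccl2 had 22 UMIs in 251 barcodes of 4T1p and 316 UMIs in 1023 barcodes of 4T1m, a log2 ratio of 1.91 (1.28 to 2.60). Without the highest barcode of each library it was 2.05 (1.35 to 2.85), and with barcodes thinned to 1000 UMIs 0.87. The Ifi47/Rsad2 state had 41.0 CPM in 4T1p and 163 CPM in 4T1m, a ratio of 1.99 (1.22 to 2.86). Ccl24 had a ratio of 4.09 (1.56 to 9.41) on 1 and 65 UMIs.

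A single barcode of 4T1m held 29 of these 65 Ccl24 UMIs, together with the class's highest counts of Ccl6 (115 UMIs) and Ccl9 (45 UMIs), and with macrophage markers at 3247 CPM and neutrophil markers at 30764 CPM. Neutrophil-like barcodes of 4T1m with a Ccl2 UMI had macrophage markers at 1520 CPM, and those without one at 707 CPM. For Ccl24 these values were 4099 and 686 CPM, for Ccl12 3832 and 618 CPM, and for Ccl8 4739 and 630 CPM, whereas for Ccl3 they were 809 and 770 CPM. The part of RNA from macrophages in these low counts was not tested.

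Ccl3 and Ccl4, the genes that are abundant in neutrophil-like barcodes, were both lower in 4T1m over that class as a whole, by less than 2-fold. The log2 ratio was -0.30 (-0.34 to -0.26) for Ccl3 and -0.66 (-0.73 to -0.58) for Ccl4. That of Ccl3 was 0.005 without an upper limit on genes or UMIs. By state, Ccl3 was lower in 4T1m only in Nceh1/Ccdc126 and higher in the other neutrophil-like states, though in Ifi47/Rsad2 the intervals overlapped. Ccl4 was lower in each of these states but Camp/Ngp. In Slc2a3/Steap4 of 4T1p, however, 1 barcode held 77 of the 119 Ccl4 UMIs. The share of Slc2a3/Steap4 barcodes with a Ccl4 UMI was 37.5% in 4T1p and 41.2% in 4T1m. The states took different parts of the libraries: Slc2a3/Steap4 had 32 barcodes in 4T1p and 255 in 4T1m, and Camp/Ngp 22 and 143. The thinned share of barcodes with a Ccl4 UMI was 45.4% in 4T1p and 35.0% in 4T1m, and that for Ccl3 75.1% and 71.0%. Ccl6, at -0.04, and Ccl12, at 0.01, were level.

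Pairs of the chemokine genes were also counted within single barcodes. Among macrophage-like barcodes thinned to 1000 UMIs, Ccl4 was found in 91.0% of those with Ccl3 and 54.5% of those without it in 4T1p, and in 93.9% and 61.1% in 4T1m. In neutrophil-like barcodes, where fewer barcodes held Ccl4, the values were 54.7% and 17.5%, and 40.8% and 20.9%. Most neutrophil-like barcodes with Ccl3 in 4T1m therefore had no Ccl4 UMI at that depth.

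Ccl7 was found in 47.0% of macrophage-like barcodes with Ccl2 and in 17.8% of those without it in 4T1p, and in 46.3% and 18.6% in 4T1m. It was also higher among barcodes with Ccl2 in each of the 5 states, for example 36.3% and 7.9% in Inhba/Sdc1 and 62.6% and 39.2% in Cbr2/Ednrb. Ccl9 was found in 37.4% of barcodes with Ccl6 and 15.4% of those without it in 4T1p, and in 49.2% and 22.4% in 4T1m. Not all genes of the first cluster were paired so in 4T1m, where Ccl8 was found in 9.8% of barcodes with Ccl2 and 9.6% of those without it. The shares of that pair in 4T1p are not given here. Nor were such pairs limited to 1 cluster, since Ccl4 was found in 84.1% of barcodes with Ccl2 and 61.6% of those without it in 4T1p, and in 89.3% and 69.8% in 4T1m. The pair of Ccl3 and Ccl8 went the other way: Ccl3 was found in 32.5% of barcodes with Ccl8 and 45.7% of those without it in 4T1p, and in 41.0% and 50.4% in 4T1m. These shares are a description over barcodes of the same libraries, which also differ in state.

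**Figure D4:**
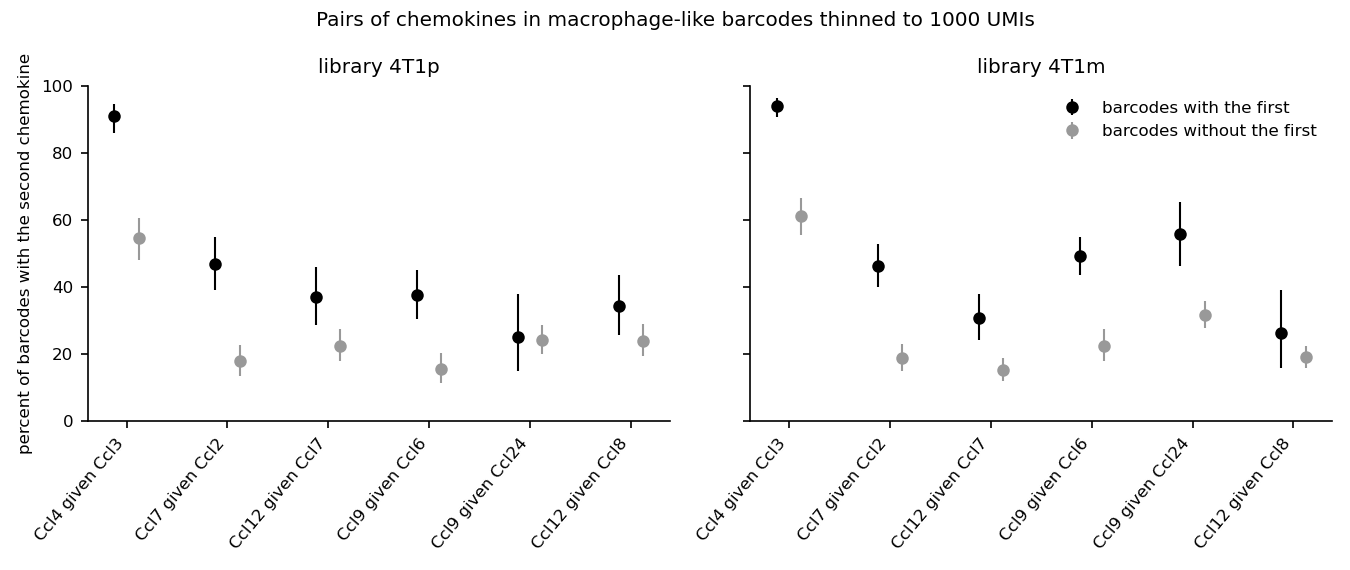
Percent of macrophage-like barcodes, each thinned to 1000 UMIs, in which the second gene of a pair was found, among barcodes with (black) and without (grey) the first, with exact binomial 95% intervals, in the 2 libraries. Ccl4 was found in 91.0% of barcodes with Ccl3 and 54.5% of those without it in 4T1p.

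Across the 18 groups of 9 states in 2 libraries, Pearson's r of log2 levels was 0.94 for Ccl2 with Ccl24, 0.89 for Ccl9 with Ccl24, 0.87 for Ccl2 with Ccl7, 0.86 for Ccl7 with Ccl12 and 0.86 for Ccl12 with Ccl8. It was 0.06 for Ccl3 with Ccl4 and -0.80 for Ccl3 with Ccl12. The groups share libraries and depth, and the contrast of the 2 classes weighs on every r, so these are descriptions. Among 6091 genes, the patterns most like Ccl3 were those of Ccrl2 (0.97), a receptor that binds chemoattractants without signalling, and Il1rn (0.94), the interleukin-1 receptor antagonist. Nearest to Ccl2 were Fn1 (0.95), which encodes fibronectin, and Cd38 (0.95). Mrc1 (0.97), the mannose receptor of macrophages, was among the 3 nearest to Ccl7, and Cx3cr1 (0.98), the fractalkine receptor, among those nearest to Ccl12. Nearest to Ccl8 was Fcgrt (0.95), the neonatal Fc receptor, and to Ccl24 Fn1 (0.97), while Emp1 (0.96) was among the 3 nearest to Ccl9. Ccl4 and Ccl6 had lower values, led by Creb5 (0.92) and by Ctsd (0.84), the lysosomal protease cathepsin D.

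Receptor genes of a fixed list were read in the same barcodes. The list left out Ccr8, the gene of the main receptor of mouse Ccl8. Of the 9 receptor genes listed, 4 had the 20 UMIs needed for a comparison. Ccr2 was at 398 CPM in macrophage-like and 10 CPM in neutrophil-like barcodes (log2 ratio 5.35). Ccr1 went the other way with 331 and 1058 CPM (-1.68), as did Ccrl2 with 1291 and 4257 CPM (-1.72). Ccrl2 was highest in the 2 neutrophil-like states with the most Ccl3, at 7314 CPM in Ifi47/Rsad2 and 4988 CPM in Nceh1/Ccdc126. None of the 4 differed by 2-fold between the libraries in either class, with log2 ratios in macrophage-like barcodes of 0.32 for Ccr1, 0.39 for Ccr2 and 0.05 for Ccrl2.

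Of 12 other CC chemokine genes, 3 had enough UMIs for the class comparison, and 2 of them were higher in macrophage-like barcodes, 1 being Ccl17 with 55 UMIs there and 0 in neutrophil-like ones. Ccl5, which draws T cells and monocytes, was at 541 CPM there and 12 CPM in neutrophil-like ones. Between the libraries Ccl5 had a log2 ratio of -0.21 in macrophage-like barcodes, and 1 of 3 genes of that list was lower in 4T1m, Ccl17 with -1.14. Among 3 of 6 other myeloid attractants and growth factors with enough UMIs, Vegfa was higher in macrophage-like barcodes (1.28), and Csf1 (-3.85) and Csf2 (-3.78), the macrophage and granulocyte-macrophage colony-stimulating factors, were lower. Csf2 rested on 4 and 20 UMIs. Csf1, at 33 CPM in macrophage-like and 475 CPM in neutrophil-like barcodes, thus lay on the side of Ccl3.

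A list of 12 genes of the NF-κB response had 1 gene higher in macrophage-like barcodes and 4 lower, among them Il1b (-1.26) and Nfkbia (-1.13), with a median log2 ratio of -0.52. Within libraries the counts were 0 higher and 3 lower in 4T1p, and 2 higher and 2 lower in 4T1m. A list for interleukin-4 and alternative activation, which also holds the receptor gene Il4ra and the signal transducer gene Stat6 and of which 10 of 12 genes had enough UMIs, had 6 higher and 0 lower, with a median of 4.40 and with Mrc1 (5.40), Fn1 (5.15) and Arg1 (4.16) as examples. It had 6 higher and 2 lower within 4T1p, and 6 higher and 1 lower within 4T1m. Between the libraries in macrophage-like barcodes, 3 genes of the first list were higher in 4T1m (Nfkb1 1.42, Rel 1.21 and Il1b 1.01). Il1b had 2407 CPM in 4T1p and 4854 CPM in 4T1m, as labelled. Of the second list 2 were higher (Retnla 1.48 and Fn1 1.02) and 1 was lower (Pdcd1lg2 -1.32), while Arg1 had 0.00. Of 2 attractants compared there, Csf1 was higher (1.02) and Vegfa had 0.72. In neutrophil-like barcodes 0 of 4 receptors, 1 of 2 other CC chemokines (Ccl5, -1.52), 2 of 12 genes of the NF-κB list and 2 of 8 of the interleukin-4 list (Fn1 higher at 1.90 and 1 lower) differed by 2-fold. The background shares are those given above for genes with at least 200 UMIs. Some listed genes, such as Ccl17 (55 UMIs) and Csf2 (24 UMIs), lie under that floor.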

How the data were processed

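Cell Ranger on GRCm38 (mm10) gave the UMI counts of 10x Genomics 3′ libraries that the authors deposited, unnormalized and limited to barcodes called as cells. The matrix headers name software version 3.1.0, which is not the Cell Ranger version given in the methods of the study. The 9 genes and the gene lists were chosen with earlier results of these data known. Gene symbols that occur more than once (58) kept their first identifier.

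Kept barcodes were normalized with SCTransform (3000 variable genes, from which the 9 chemokine genes were removed) and clustered on 11 principal components at a resolution of 0.8. A class follows from marker lists, and a cluster of low depth without class markers among its top genes stayed unnamed. Doublets were left in, and removal of the 13 and 44 top-scoring barcodes was an alternative. Levels, shares and log2 ratios were computed from the deposited counts with exact Poisson and binomial intervals, a 95% level, at least 20 UMIs for a call and at least 200 UMIs for the background genes. Thinning drew 1000 UMIs per barcode and left out shallower barcodes. Likeness of patterns used log2(CPM + 10) in groups of at least 20 barcodes, and the 3 genes of highest r were the candidates named. All 9 chemokine genes were named. Results on 1 gene of the lists are not reported here.

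Counts were also simulated from a Poisson model at the group totals, with planted changes larger than the 2-fold rule. Of the changed genes, 100.0% of 173 (macrophage-like, 5023 genes) and of 147 (neutrophil-like, 2303 genes) were called. That outcome was set by the size of the planted changes, and the model lacks the uneven spread of UMIs over barcodes. It checks the calculation only. Tools in R 4.3.3 were Seurat 5.3.0 and sctransform 0.4.2. Those in Python 3.11.15 were scanpy 1.11.5, leidenalg 0.10.2, pandas 2.3.3, scipy 1.17.1, matplotlib 3.10.9 and numpy 2.4.6.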

Additional observations from a re-analysis of the deposited data

Results flagged for a closer look

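The ratio of 4T1m over 4T1p for Ccl4 had opposite signs in the 2 classes, with log2 values of 0.11 in macrophage-like and -0.66 in neutrophil-like barcodes, both under 2-fold. The former turned to -0.03 with median-of-ratios scaling and also went below 0 with equal weight to states, and the difference between the classes was not tested. Ccl8 had ratios of -2.01 in Cbr2/Ednrb, -1.35 in Klrb1b/Ifit2, -0.98 in Inhba/Sdc1 and -0.26 in Birc5/Ube2c but 0.35 in Cxcl9/Tmem176b. Without the highest barcode of each library Inhba/Sdc1 turned to 0.24 and Cxcl9/Tmem176b to -1.73, and this difference between states was not tested either.

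Barcodes that failed the limits also held UMIs of the 9 chemokine genes. Those over the mitochondrial limit summed to 5445 CPM in 286 barcodes of 4T1p and 5898 CPM in 504 barcodes of 4T1m. Those over the upper limits on genes or UMIs had 9692 CPM in 57 barcodes of 4T1p and 8358 CPM in 58 barcodes of 4T1m. Those under the minimum of detected genes had 677 CPM in 170 barcodes of 4T1p and 709 CPM in 95 barcodes of 4T1m. The kept macrophage-like barcodes had 12636 and 13403 CPM.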

How the results depend on the processing

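Each comparison was recomputed under up to 14 settings chosen at the start and 2 added after seeing the data (low-RNA barcodes added to the macrophage-like class, and the highest barcode of each group left out). In macrophage-like barcodes the count of genes 2-fold apart between libraries was 1, Ccl8, except for 0 with equal weight to states (Ccl8 at -0.94), and the Ccl8 ratio ranged from -3.77 to -0.94. In neutrophil-like barcodes the count of 2 became 1 with barcodes thinned to 1000 UMIs (Ccl7 at -1.57, with Ccl2 at 0.87), 1 without the top 1% of barcodes, and 1 without the highest barcode of each group; Ccl24, at 0 UMIs in 4T1p or too few UMIs, gave no ratio in these 3. That count became 3 with log-normalization and Leiden clusters (Ccl9 at -1.32). The count of 7 genes higher in macrophage-like than in neutrophil-like barcodes became 6 with median-of-ratios scaling (Ccl4 at 0.78) and 8 without an upper limit (Ccl6 at 1.09). Under the settings the sign changed in 19 of 144, 20 of 141 and 1 of 135 ratios of these 3 comparisons, all of them ratios under 2-fold. The causes were not tested.

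No paired analysis was possible because each condition had 1 library and no replicate to pair or leave out. Direction between libraries rests on labels whose median depths stand exchanged against the study's methods.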
